A study of Homo sapiens with 15 samples.

Results

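Loss of the BRD9 protein for 6 hr was followed by RNA-seq in HSSYII cells, a human synovial sarcoma line that carries the SS18-SSX1 fusion. The experiment comprises 6 of the 15 libraries of the series, taken by their labels: 3 libraries of cells given 100 nM dBRD9-A for 6 hr and 3 of cells given the DMSO vehicle for the same time. All 6 come from the same line, kept under 12 passages, and every library therefore carries the fusion. The other 9 libraries, of cells with lentiviral hairpins for 96 hr, entered only the choice of transcript row and 1 alternative fit. The comparison asks which mRNAs move soon after BRD9 is removed. Only 1 line, 1 dose and 1 time were sampled, and no inactive analogue of the degrader was among the libraries analysed here.

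BRD9 is a bromodomain protein, a reader of acetylated lysine, and belongs to a form of the BAF chromatin remodelling complex that holds GLTSCR1 or GLTSCR1L. BAF complexes use ATP to move nucleosomes and so alter access to promoters and enhancers. In synovial sarcoma the subunit SS18 is fused to part of an SSX protein, and the fusion is built into BAF complexes in place of SS18. dBRD9-A couples a ligand of the BRD9 bromodomain to a ligand of cereblon (CRBN), the substrate receptor of a ubiquitin ligase, so that BRD9 protein is marked for the proteasome.

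Counts of the rows kept summed to 20758619 to 23226722 per DMSO library and 22581453 to 24707162 per dBRD9-A library. Most markers of the line were present in all 6 libraries, among them SS18, SSX1, TLE1, TWIST1 and PRAME. Its 13 markers summed to 1154 to 1204 CPM (read counts scaled to a common library size) with DMSO. With dBRD9-A they summed to 1163 to 1190 CPM. Of these markers CD99 was listed at 0 in every library, and CTAG1B and CTAG2 did not exceed 0.172 CPM. The summed level of 10 leukocyte markers was 3.85 to 4.61 CPM with DMSO and 3.81 to 4.62 CPM with dBRD9-A, nearly all of it CD68, and that of 10 endothelial markers did not exceed 1.81 CPM. CD3D, CDH5, VWF and EPCAM had no count. The 11 muscle markers summed to 26.9 to 30.9 CPM with DMSO and 33.2 to 34.7 CPM with dBRD9-A, most of it MYH11, which rose by 0.27, while DES and MYOG were at 0. The 11 epithelial markers summed to at most 0.399 CPM. The first principal component held 52.2% of the variance and separated the 2 groups, and no pair of libraries had identical counts.

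A degrader acts on protein, so the BRD9 transcript is no check of the treatment. BRD9 mRNA stood at 85.4, 90.5 and 91.5 CPM with DMSO and at 95.9, 90.0 and 96.7 CPM with dBRD9-A, and the ranges overlapped. Its log2 fold change, always given here as dBRD9-A minus DMSO, was 0.08 ± 0.04 (SE; edgeR adjusted p = 0.122). SS18 (0.06 ± 0.03, edgeR adjusted p = 0.207), SSX1 (0.04 ± 0.05, edgeR adjusted p = 0.604) and CRBN (0.07 ± 0.06, edgeR adjusted p = 0.362) did not pass either.

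Most changes were small and the largest were in weakly expressed genes. Of 13651 genes tested, 305 were higher by more than 1.5-fold at an adjusted p under 0.05 (2.23% of all tested) and 81 were lower (0.593%). These are called genes below. The test was edgeR's quasi-likelihood test with Benjamini-Hochberg adjustment over all genes. Without the fold threshold 2423 genes rose (17.7%) and 2483 fell (18.2%), so that 386 of these 4906 genes passed the fold threshold. Scaling to the ribosomal protein genes gave 243 and 133 called genes, so the share of called genes that were higher was 64.6% in place of 79.0%, and 1227 genes rose and 3297 fell at any fold (27.1% in place of 49.4% of them higher). Neither scaling can see a change of all mRNAs at once, since no row of a spike-in RNA was among the counts. With the dBRD9-A libraries lowered by 0.1, 0.2 or 0.3 on the log2 scale, 210, 158 and 122 genes were called higher and 186, 399 and 865 lower.

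The surplus of rises lay in the low range. Among genes with a mean under 1 CPM 98 of 1025 were called higher and 19 lower, and at 1 to 5 CPM 148 of 1819 were called higher and 35 lower. At 20 to 100 CPM only 11 of 5524 were called higher and 5 lower, and over 100 CPM 7 and 4 of 2772. At any fold the order turned with level: over 100 CPM 17.5% of genes were higher and 30.7% lower, and at 5 to 20 CPM 20.1% were higher and 13.3% lower. More genes were also detected. With each library reduced by calculation to the smallest total of 20758619 counts, the expected number of genes with a count was 16717 to 16725 in the DMSO libraries and 17023 to 17046 in the dBRD9-A libraries. Of the 305 genes called higher, 38 had fewer than 10 counts in every DMSO library, and none was at 0 in all 3. These 38 entered the test only through their dBRD9-A libraries.

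Sterol and fatty acid genes held several of the largest falls, INSIG1 and SCD among them. When cells hold enough sterol, INSIG1 keeps SCAP and the SREBP factors (SREBF1, SREBF2) in the endoplasmic reticulum. When sterol is low the SREBPs are cut and enter the nucleus, where they turn on the genes of cholesterol and fatty acid synthesis. INSIG1 stood at 153, 160 and 156 CPM with DMSO and at 76.4, 75.9 and 75.8 CPM with dBRD9-A. It thus fell 2.06-fold, with a spread between replicates far smaller than the difference (log2 fold change -1.04 ± 0.04, edgeR adjusted p = 4.79e-20).

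INSIG1 lies on chromosome 7 (GRCh37, 155089486 to 155101945, plus strand). The 250 bases before its start, shown because it had the smallest adjusted p of all genes, and those of HMGCS1, an enzyme of the same pathway, are given 5′ to 3′ from the RefSeq promoter table (GRCh38.p14). Capitals mark the E-box CACGTG in INSIG1, the letters that SREBPs and other factors can bind, and the CCAAT box CCAATC in HMGCS1, read on either strand (GATTGG), the letters bound by NF-Y.
INSIG1, chr7:155297628-155297877, plus strand: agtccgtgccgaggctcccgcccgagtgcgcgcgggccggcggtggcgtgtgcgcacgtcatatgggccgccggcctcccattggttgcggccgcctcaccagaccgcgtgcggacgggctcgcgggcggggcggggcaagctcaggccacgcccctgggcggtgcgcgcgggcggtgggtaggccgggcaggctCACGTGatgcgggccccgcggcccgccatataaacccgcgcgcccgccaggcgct
HMGCS1, chr5:43313413-43313662, minus strand: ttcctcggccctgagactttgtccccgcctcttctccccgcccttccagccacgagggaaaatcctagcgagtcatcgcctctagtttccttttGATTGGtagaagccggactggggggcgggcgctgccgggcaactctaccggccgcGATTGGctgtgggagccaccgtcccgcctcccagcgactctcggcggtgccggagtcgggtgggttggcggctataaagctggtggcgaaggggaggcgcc

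Of all 27305 promoters given there 6.49% hold CACGTG and 14.6% hold CCAATC in the same 250 bases. For promoters of tested genes the shares are 9.23% and 19.1%. The sterol element TCACCCCAC was searched as well and is in neither stretch. It is found in 0.348% of all promoters and 0.310% of those of tested genes. The 2 CCAATC matches in HMGCS1 do not overlap. Promoters of 15 of the 20 tested cholesterol synthesis genes were in the table, too small a part of the list, so a share over it would be void and nothing about the list is read from these letters.

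STARD4, which carries cholesterol between membranes, stood at 43.1, 41.9 and 40.4 CPM against 22.7, 23.6 and 23.6 CPM (-0.85 ± 0.05). Of the 18 tested genes of sterol sensing, uptake and export 8 fell and 1 rose, and 3 were called, INSIG1 and STARD4 among them. Among all tested genes 18.2% fell and 0.593% were called lower. SREBF2, the main regulator of cholesterol genes, fell from 195, 207 and 190 CPM to 155, 160 and 153 CPM (-0.34 ± 0.04). SREBF1, SOAT1 and SCAP also fell, by 0.15 to 0.25 on the log2 scale. The member that rose was ABCA1, the cholesterol exporter, at 6.39, 5.71 and 6.49 CPM against 8.12, 7.75 and 7.37 CPM. It did not pass without DMSO replicate 2 or without dBRD9-A replicate 1. INSIG2, ABCG1 and NR1H3 did not pass.

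All along the cholesterol pathway the falls were smaller. Of 20 tested genes 16 fell, 0 rose and none was called, with a median log2 fold change of -0.32 beside 0.01 for all genes tested. MSMO1, a sterol C4 demethylase, had the largest fall at 76.3, 78.3 and 77.9 CPM against 52.3, 51.9 and 53.4 CPM (-0.56 ± 0.04, edgeR adjusted p = 3.27e-12). CYP51A1 (-0.51 ± 0.04) and SQLE (-0.48 ± 0.03) followed. HMGCS1 was at 235, 234 and 234 CPM with DMSO and at 180, 181 and 182 CPM with dBRD9-A, so the groups stood well apart although the change was 1.29-fold. EBP and PMVK did not pass.

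SCD, the desaturase that makes oleate from stearate, stood at 1268, 1327 and 1209 CPM with DMSO and at 644, 674 and 710 CPM with dBRD9-A. It fell 1.87-fold (-0.91 ± 0.03, edgeR adjusted p = 1.84e-18), and it was the called member of the 22 tested genes of fatty acid synthesis and desaturation. Of these 13 fell and 2 rose, and the median was -0.20. The falls ran from SCD5 (-0.55 ± 0.05), ACSL3 (-0.43 ± 0.03) and ACACA (-0.38 ± 0.04) to FASN, at 894, 1024 and 992 CPM against 791, 768 and 793 CPM, and ACLY. GPAM and ELOVL4 rose, but ELOVL4 did not pass without DMSO replicate 2 or without dBRD9-A replicate 2. Under all scalings tried 14 to 20 cholesterol genes were lower and 0 higher. In a fit of all 15 libraries, whose shared spread is wider, 12 cholesterol genes and 8 of the fatty acid genes were lower.

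**Figure D1:**
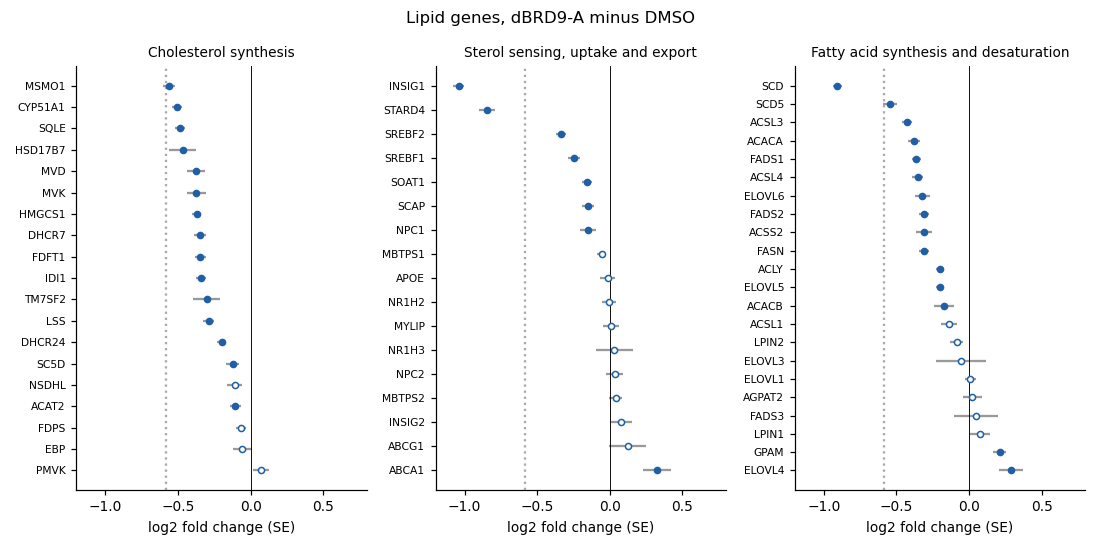
Log2 fold change of dBRD9-A minus DMSO (horizontal axis) for tested genes of cholesterol synthesis, of sterol sensing, uptake and export, and of fatty acid synthesis and desaturation. Bars are standard errors, filled points passed at an adjusted p under 0.05, the dotted line marks a 1.5-fold fall, and INSIG1, STARD4 and SCD lie left of it.

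The next tested genes after SCD on chromosome 10 fell with it. Only neighbours that were both called were listed, and the tested gene before SCD was not called. LINC00263, a noncoding RNA 8272 bases further on, stood at 8.51, 10.8 and 8.47 CPM with DMSO and 6.00, 4.84 and 4.76 CPM with dBRD9-A (-0.84 ± 0.11). SEC31B, a COPII coat gene that follows it after 32602 bases, fell by 0.63. Whether reads from one unit reach the next cannot be told from gene counts, and the strand setting of the counting was not given in any source used here.

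Genes outside lipid metabolism were among the largest falls too. The gene with the largest fall at 1 CPM or more was CELSR2, an atypical cadherin of planar cell polarity, at 2.66, 3.07 and 2.71 CPM against 0.680, 0.646 and 0.617 CPM, 4.32-fold (-2.11 ± 0.21, edgeR adjusted p = 2.14e-09). FER1L4, a noncoding relative of the ferlin genes, fell from 18.7, 18.8 and 19.9 CPM to 10.2, 9.68 and 10.0 CPM (-0.94 ± 0.07). FZD2, a receptor for Wnt ligands, fell from 156, 172 and 170 CPM to 102, 106 and 101 CPM (-0.69 ± 0.04). MBD5, a methyl-CpG-binding domain protein, TBCK, the photoreceptor gene PRPH2, HYAL3 and C1QTNF8 fell by 0.69 to 0.84 on the log2 scale. STON1, a protein of endocytosis, fell by 0.79, and the read-through transcript STON1-GTF2A1L, which shares reads with it, by 0.88. At 1 to 5 CPM FZD9, LYPD5 and HES7, a Notch-related repressor, were called lower as well, although LYPD5 did not pass with DESeq2. The noncoding RNA RMRP fell, at 1.13, 0.821 and 2.32 CPM against 0.680, 0.726 and 0.397 CPM, but without DMSO replicate 3 it did not pass.

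**Figure D2:**
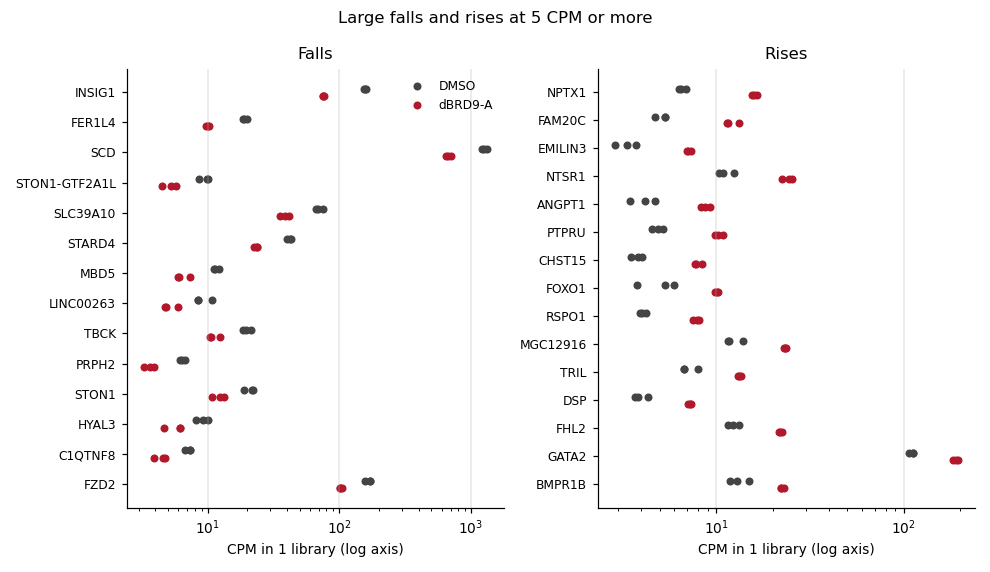
CPM in each of the 6 libraries (log axis) for 14 of the 15 largest falls (left) and the 15 largest rises (right) among called genes averaging 5 CPM or more with no overlap of groups. Each point is 1 library, grey for DMSO and red for dBRD9-A, and the groups stand apart in every row because genes were chosen so.

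Single zinc genes were among the larger changes in both directions. Metallothioneins bind zinc and copper, SLC30 proteins carry zinc out of the cytosol, and SLC39 proteins carry it in. MT1X stood at 2.07, 2.55 and 2.32 CPM with DMSO and at 5.10, 5.69 and 4.72 CPM with dBRD9-A (1.16 ± 0.14, edgeR adjusted p = 7.10e-08). MT2A was at 3.11, 3.37 and 3.10 CPM against 5.36, 5.57 and 5.47 CPM (0.77 ± 0.12). Metallothionein genes are near copies of one another, so reads may be split between them. SLC30A1, the exporter of the cell surface, rose from 20.04, 17.5 and 18.9 CPM to 29.3, 27.1 and 24.9 CPM (0.53 ± 0.07), and SLC30A3 rose at a low level. SLC39A10, an importer, had the largest fall of the list at 75.2, 67.1 and 69.5 CPM against 35.5, 39.0 and 41.6 CPM (-0.87 ± 0.05, edgeR adjusted p = 3.41e-14). The importers SLC39A14, SLC39A6 and SLC39A1 fell by 0.14 to 0.27, and SLC30A5, which carries zinc out of the cytosol, fell by 0.12 but did not pass without DMSO replicate 3 or without dBRD9-A replicate 1. MTF1, the factor that senses zinc and turns on metallothioneins, rose by 0.27. In all 5 of 20 tested members rose and 5 fell, counts not far from the 17.7% and 18.2% of all tested genes.

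MT2A and MT1X lie 72972 bases apart on chromosome 16 and were neighbours among the tested genes. The 250 bases before each start are printed because both genes rose, with the metal response letters TGCGCNC and TGCACNC in capitals on either strand.
MT1X, chr16:56682220-56682469, plus strand: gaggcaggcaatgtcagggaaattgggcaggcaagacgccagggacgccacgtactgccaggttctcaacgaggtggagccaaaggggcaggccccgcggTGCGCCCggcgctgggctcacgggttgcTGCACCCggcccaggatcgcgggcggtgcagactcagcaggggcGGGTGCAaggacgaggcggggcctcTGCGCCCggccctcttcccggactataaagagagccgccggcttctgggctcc
MT2A, chr16:56608334-56608583, plus strand: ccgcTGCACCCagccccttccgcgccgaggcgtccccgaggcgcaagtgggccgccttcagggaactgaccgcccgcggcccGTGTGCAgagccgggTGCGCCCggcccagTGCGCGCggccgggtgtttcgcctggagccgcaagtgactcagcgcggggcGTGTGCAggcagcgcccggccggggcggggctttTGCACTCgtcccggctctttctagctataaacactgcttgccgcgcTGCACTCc

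MT1X holds 4 matches and MT2A 7. At least 1 match is found in 24.7% of all promoters of the table and in 33.2% of those of tested genes. In the list, 8 of the 18 members with a promoter held one.

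Immediate early genes, whose short-lived mRNAs answer signals within minutes to hours, were mostly higher. Of 32 tested 19 rose, 0 fell and 5 were called, with a median of 0.23. Among all tested genes 17.7% rose, 18.2% fell and 2.23% were called higher. Without DMSO replicate 1, 2 fell, and without dBRD9-A replicate 1, 1 fell. When the dBRD9-A libraries were lowered by 0.2 on the log2 scale, 9 rose and 13 fell. JUN, a subunit of the AP-1 factor, stood at 2.84, 2.51 and 2.66 CPM with DMSO and at 5.15, 4.52 and 5.25 CPM with dBRD9-A (0.89 ± 0.13, edgeR adjusted p = 2.82e-06). CYR61, a secreted matrix protein, rose from 127, 122 and 131 CPM to 200, 191 and 182 CPM (0.60 ± 0.04), and CTGF, of the same family, from 33.1, 28.7 and 33.7 CPM to 53.1, 51.6 and 45.3 CPM (0.65 ± 0.06). KLF2 and ATF3 were called as well. FOSL2 and SRF rose by 0.54 and 0.37. DUSP5 (2.38-fold), DUSP4 (2.14-fold) and DUSP8 (1.73-fold), phosphatases that turn off MAP kinases, were called higher, whereas DUSP6 and SPRY1, other brakes on that pathway, fell by 0.30 and 0.41. DUSP5 averaged 2.07 CPM with DMSO and 4.94 CPM with dBRD9-A, and DUSP4 1.53 and 3.27 CPM. At 1 to 5 CPM 8.14% of tested genes were called higher. In the list of MAPK feedback genes 5 of 23 rose and 4 fell, not far from the shares of all tested genes, with a median of -0.0003.

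The integrated stress response, in which ATF4 turns on amino acid and redox genes, moved the same way. Of 32 tested genes 16 rose, 0 fell and 3 were called, beside 17.7% higher, 18.2% lower and 2.23% called higher among all tested genes. Without DMSO replicate 1, 3 fell. With the dBRD9-A libraries lowered by 0.2 the split was 8 higher and 15 lower. CHAC1, which degrades glutathione, stood at 0.630, 0.648 and 0.726 CPM against 1.49, 2.10 and 1.90 CPM (1.45 ± 0.24, edgeR adjusted p = 1.46e-05). ATF5 rose from 38.7, 42.7 and 38.2 CPM to 56.2, 55.1 and 55.4 CPM (0.48 ± 0.05) and ATF4 by 0.23. Among p53 targets 13 of 25 rose and 1 fell, but 8 rose without DMSO replicate 3, and at a shift of -0.2 the split was 2 higher and 8 lower. CDKN1A, an inhibitor of cyclin-dependent kinases, had the smallest adjusted p at 22.7, 21.6 and 23.0 CPM against 31.6, 31.2 and 29.3 CPM (0.45 ± 0.06). Cytosolic heat shock chaperones went the other way, with 11 of 20 lower and 3 higher. AHSA1 and HSPH1, partners of HSP90 and HSP70, fell by 0.36 and 0.33, while DNAJB1 (0.35) and BAG3 (0.32) rose.

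BMP genes rose more often than they fell. ID1 to ID4 are helix-loop-helix proteins without a DNA-binding region and are standard targets of BMP receptors. ID2 stood at 146, 129 and 146 CPM with DMSO and at 229, 228 and 217 CPM with dBRD9-A (0.68 ± 0.04, edgeR adjusted p = 1.28e-14). ID1 rose by 0.46, ID3 by 0.38 and ID4 by 0.37. The inhibitors SMAD7 (0.54) and BAMBI (0.46), the receptor BMPR1B (0.77 ± 0.07), the ligand BMP5 (0.92 ± 0.11) and the antagonist NOG (1.69 ± 0.34) rose as well. BMP4, also a ligand, fell. In all 13 of 28 rose, 4 fell and 4 were called, beside 17.7% higher, 18.2% lower and 2.23% called higher among all tested genes. The fall count was 1 without dBRD9-A replicate 1, and 2 without DMSO replicate 1 or without dBRD9-A replicate 2. At a shift of -0.3 the split was 8 higher and 15 lower.

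Of Wnt receptors, antagonists and targets 7 of 37 rose and 13 fell, beside 17.7% higher and 18.2% lower among all tested genes. The count of rises was thus near the share of all genes. Besides FZD2, the receptors FZD9, FZD10 and LRP5 fell, whereas FZD8, at 34.4, 35.8 and 41.5 CPM against 59.0, 58.1 and 57.0 CPM (0.64 ± 0.05, edgeR adjusted p = 4.94e-11), and FZD1 (0.50 ± 0.04) rose. RSPO1, which keeps Wnt receptors at the surface, rose from 3.92, 4.24 and 4.02 CPM to 7.95, 8.07 and 7.54 CPM. The target LEF1 fell by 0.16. Of 13 tested Hedgehog genes 2 rose and 3 fell, counts not far from those shares, and 5 fell without DMSO replicate 2. The ligand SHH was called higher (0.68 ± 0.16) but did not pass in a fit of all 15 libraries. IHH, a related ligand, had 1, 1 and 1 counts with DMSO and 11, 16 and 12 counts with dBRD9-A. IHH entered the test only through its dBRD9-A libraries, so its rise is not independent evidence.

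SE associated genes named in the study, those near super-enhancers, fell by small amounts. They were picked by the study with these samples at hand, so their direction is not independent evidence. Of 10 genes 9 fell, 0 rose and none was called, with a median of -0.26. LIF, a cytokine of the interleukin-6 family, fell from 77.2, 90.0 and 73.9 CPM to 58.1, 55.9 and 61.9 CPM (-0.46 ± 0.05, edgeR adjusted p = 2.29e-07). MYC was at 392, 421 and 410 CPM against 308, 297 and 297 CPM (-0.44 ± 0.03). The zinc finger factors ZIC4 and ZIC1 fell by 0.40 and 0.25. TRPS1, DNM3, TCF4, TWIST1 and FOXC1 fell by 0.07 to 0.26, TWIST1 with overlapping groups. TWIST1 did not pass without dBRD9-A replicate 3, and FOXC1 did not pass without DMSO replicate 3 or without any 1 of the dBRD9-A libraries. TLE1, a corepressor and marker of the tumour, had a value of 0.02 ± 0.03 (edgeR adjusted p = 0.693).

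Among BAF subunits 12 of 30 rose and 5 fell, beside 17.7% higher and 18.2% lower among all tested genes. The count of falls was thus near the share of all genes, and none of the subunits was called. The count of rises was 7 without DMSO replicate 3, and scaling to the ribosomal protein genes gave 4 higher and 5 lower. SMARCC2, a core scaffold subunit, had the smallest adjusted p and fell from 237, 249 and 238 CPM to 173, 180 and 177 CPM (-0.45 ± 0.03, edgeR adjusted p = 3.10e-12). BCL11A, SMARCD2, SMARCA2 and SMARCC1 fell by 0.18 to 0.44. GLTSCR1L, which shares the complex with BRD9, rose from 35.6, 31.3 and 33.7 CPM to 41.7, 41.3 and 44.2 CPM (0.34 ± 0.05), and GLTSCR1 from 15.6, 14.96 and 14.9 CPM to 17.5, 17.8 and 16.8 CPM (0.20 ± 0.07, edgeR adjusted p = 0.0183). GLTSCR1 did not pass without DMSO replicate 3, without dBRD9-A replicate 1 or without dBRD9-A replicate 2. GLTSCR1L did not pass at a shift of -0.3, and neither GLTSCR1L nor SMARCD2 passed in a fit of all 15 libraries.

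Among the 15 largest rises at 5 CPM or more the first was NPTX1, a secreted pentraxin of synapses, at 6.35, 6.53 and 6.92 CPM with DMSO and at 16.0, 16.5 and 15.6 CPM with dBRD9-A, 2.43-fold (1.28 ± 0.08, edgeR adjusted p = 1.47e-13). FAM20C, a Golgi kinase of secreted proteins, rose 2.36-fold and NTSR1, the neurotensin receptor, 2.14-fold, from 10.9, 12.5 and 10.4 CPM to 24.3, 25.5 and 22.5 CPM. EMILIN3, a matrix glycoprotein, ANGPT1, a ligand of the TIE2 receptor, PTPRU, a receptor phosphatase, and CHST15, a sulfotransferase of chondroitin sulfate, rose 2.10- to 2.15-fold. FOXO1, a forkhead factor, went from 5.31, 3.80 and 5.96 CPM to 10.1, 10.2 and 9.88 CPM. The most abundant of the 15 was GATA2, a zinc finger factor, at 107, 113 and 112 CPM against 195, 190 and 183 CPM (0.77 ± 0.04, edgeR adjusted p = 3.49e-17). MGC12916, TRIL, the desmosome gene DSP and FHL2 rose by 0.82 to 0.91. At 1 to 5 CPM the largest rises were ZNF469, the connexin GJA3, EFHD1, CYP1A1 and the protocadherin PCDH1, at 2.87- to 3.20-fold.

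Of 16 tested neuronal and synaptic genes 7 rose, 1 fell and 4 were called: NPTX1, RBFOX3, SLC32A1 and NPTXR. For this and the next lists, 2.23% of all tested genes were called higher, but 8.14% of those at 1 to 5 CPM. NPTXR did not pass without DMSO replicate 1, DMSO replicate 3 or dBRD9-A replicate 3, nor SLC32A1 without dBRD9-A replicate 2 or 3. ENO2, a neuronal enolase, fell by 0.52, and 2 genes fell without DMSO replicate 2. At a shift of -0.3 the split was 3 higher and 3 lower. Of 54 tested axon guidance genes 13 rose and 12 fell, counts near the 17.7% and 18.2% of all tested genes. SEMA3C rose from 80.5, 72.5 and 79.3 CPM to 113, 122 and 120 CPM (0.61 ± 0.04), while the netrin receptor UNC5C fell by 0.52. Of 25 tested collagens 8 rose, 3 fell and 5 were called, COL1A1 among them (0.69 ± 0.11). The count of collagens that fell was 6 without DMSO replicate 1, and with the dBRD9-A libraries lowered by 0.1 the split was 7 higher and 10 lower. Of 59 homeobox and PAX factors 12 rose and 16 fell, not far from those shares, and the 5 called, DLX3, EMX1, EMX2, MSX2 and LHX6, were all higher and all under 5 CPM. LHX6 did not pass with DESeq2.

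Cell cycle genes moved little. In the S phase list 21 of 41 genes rose and 3 fell, led by LIG1, the ligase of Okazaki fragments, at 72.5, 76.6 and 76.5 CPM against 98.8, 98.5 and 94.5 CPM (0.37 ± 0.04, edgeR adjusted p = 8.58e-09). That count was 10 without DMSO replicate 3, without dBRD9-A replicate 1 or without dBRD9-A replicate 2. The fall count was 5 without DMSO replicate 2, and scaling to the ribosomal protein genes gave 6 higher and 6 lower. In the mitosis list 11 of 46 fell and 4 rose, where 18.2% of all tested genes fell. CENPF, a kinetochore protein, had the largest fall (-0.27 ± 0.03). The rise count there was 1 or 2 without DMSO replicate 2, DMSO replicate 3, dBRD9-A replicate 1 or dBRD9-A replicate 2. Of 21 tested G1 cyclins and CDK inhibitors 6 rose and 7 fell. CCNE2 and CCNE1, cyclins of the entry into S phase, rose by 0.37 and 0.33, and CCND2, a cyclin of G1, fell by 0.19. In a fit of all 15 libraries 3 of the list rose and 0 fell. The letters TTTGAA, the cell cycle homology region, lie before 21 of 39 mitosis genes. They are found in 13.6% of all promoters of the table and 8.24% of those of tested genes. The E2F letters TTTCCCGC lie before 9 of 36 S phase genes, where the same shares are 1.42% and 2.24%. The 21 mitosis genes with TTTGAA had a median log2 fold change of -0.03 and the 18 without it -0.04.

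Without the fold threshold, long genes fell more often than short ones, by small amounts. Gene spans on GRCh37, from the GENCODE annotation, were matched for 96.5% of tested genes. Genes were put in 5 equal classes by span. In the shortest class, up to 9248 bases, 21.5% of genes rose and 8.57% fell, and in the longest class, from 91209 bases, 13.6% rose and 30.9% fell. Called genes did not follow this order: 83 were higher and 17 lower in the shortest class, and 64 and 18 in the longest. For genes averaging 20 CPM or more, a choice made after the values were seen, the share that fell went from 12.1% to 39.5% over the 5 classes. The median log2 fold change at that level went only from 0.04 in the shortest class to -0.07 in the longest. Transcripts with more exonic bases also fell more often, from 9.26% to 38.0% over 5 classes of exonic length at that level. Within the middle of 3 classes of exonic length the share that fell was 18.8% for short, 22.9% for middle and 32.6% for long spans. The longest class took 17.1% to 17.7% of counts in the DMSO libraries and 16.6% to 17.0% in the dBRD9-A libraries, a small and not overlapping difference, and the shortest class 19.2% to 20.01% and 20.1% to 20.6%. DMSO replicate 2 lay nearest the dBRD9-A libraries in both. At 20 CPM or more, leaving out 1 library at a time gave 30.9% to 45.7% lower in the longest class and 9.43% to 15.1% in the shortest. With ribosomal protein gene scaling the shortest class at that level had 10.1% higher and 18.5% lower, so its split turned, and the longest had 49.2% lower. The fit of all 15 libraries gave 3.35% lower in the shortest class and 13.3% in the longest. The part of RNA quality in this order was not tested, and genes are not replicates, so no p is given.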

How the data were processed

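RNA from HSSYII cells was sequenced on an Illumina instrument as single-end reads. Per the labels' processing notes STAR, hg19 (GRCh37) and featureCounts were used, and the authors deposited raw counts for 48104 RefSeq transcript rows in each library. Tool versions and the strand setting were not given in the sources used here. Spike-in RNA was added per the methods, but 0 rows name one. In the table of dBRD9-A replicate 2, 4535 rows had a symbol broken across columns, and their counts were read from the last word. For each of 25680 symbols the row with the highest sum over 15 libraries was kept, and CPM were computed with TMM library sizes.

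The 6 libraries were fitted with edgeR 4.0.16 (R 4.3.3; quasi-likelihood test, robust, filterByExpr with a minimum count of 10), and adjusted p-values in the text come from this fit. Limma 3.58.1 and DESeq2 1.42.0 were alternatives. Of these, only the edgeR fit was run on simulated counts with known changes. It recovered 61.4% of changes of 1.25-fold, 83.6% of 1.5-fold and 98.3% of 2-fold. The labels do not say whether replicates were separate cultures, so the p-values reflect only how these libraries vary, and that variation may be technical. The common coefficient of variation was 2.78%.

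The genes named are the 15 largest rises and falls at 5 CPM or more, the 5 largest at 1 to 5 CPM, members of gene lists with small p-values, and the genes of the question. Experiment, genes and lists were chosen with earlier results of these data known. The level cut of 20 CPM, 2 lists and the genes named in the closing section were chosen after the values were seen. Promoters came from RefSeq (GRCh38.p14) and matched 77.95% of tested genes. Some members of these lists are not reported here.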

Additional observations from a re-analysis of the deposited data

How the results depend on the processing

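The 305 genes called higher and 81 called lower became 243 and 133 with ribosomal protein gene scaling, and 2423 and 2483 genes at any fold became 1227 and 3297. With the dBRD9-A libraries moved by -0.1, -0.2 and -0.3 there were 210, 158 and 122 genes called higher, 186, 399 and 865 called lower, 1047, 519 and 305 higher at any fold, and 5140, 8081 and 9958 lower. These moves shift every gene by construction, and at -0.3 the log2 fold changes of ATF4 (-0.065), MYH11 (-0.028), GLTSCR1 (-0.10), ELOVL4 (-0.012), GPAM (-0.089) and MTF1 (-0.034) turned negative. DESeq2 called 184 higher and 52 lower, with 1603 higher and 2068 lower at any fold, and gave 530 genes no adjusted p. The fit of all 15 libraries called 241 and 55, with 737 and 763 at any fold. A looser fold threshold, 0.32 on the log2 scale, gave 735 and 513 and a 2-fold threshold 103 and 13. Leaving out 1 library gave 277 to 319 and 67 to 101 called genes, and 1709 to 2452 and 1900 to 2660 at any fold. The replicate block gave 314 and 82 called genes, 384 of them shared with the fit without it. Same-numbered libraries did not deviate together (correlations of -0.031, 0.025 and -0.017). With 3 libraries per group this cannot exclude that the libraries were paired. Of 152 genes named, 30 did not pass in the fit of all 15 libraries, 9 did not pass or had no adjusted p with DESeq2, and 1, FOXC1, did not pass with the replicate block.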

Other observations

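RBM3, a cold-inducible RNA-binding protein, had the smallest adjusted p after INSIG1 and was chosen after its values were seen. It stood at 313, 311 and 304 CPM with DMSO and at 522, 518 and 509 CPM with dBRD9-A (log2 fold change 0.74), and its relative CIRBP was also called higher (0.59). Of 7 tested genes of the aryl hydrocarbon receptor, a sensor of aromatic ligands, 4 rose and 1 fell, beside 17.7% and 18.2% of all tested genes. This list and CIRBP were also chosen after the values were seen, so the counts are description only. CYP1A1 was called higher, and CYP1B1 and AHRR rose by 0.48 and 0.32.

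Of 31 proteasome subunits 17 rose and 0 fell, of 76 cytosolic ribosomal proteins 26 and 0, and of 62 nuclear-encoded respiratory chain genes 20 and 1, with medians of 0.10, 0.06 and 0.06. The ribosomal protein count was 44 without DMSO replicate 2, 2 without DMSO replicate 3, 5 without dBRD9-A replicate 1 and 9 without dBRD9-A replicate 2. Without DMSO replicate 3, dBRD9-A replicate 1 or dBRD9-A replicate 2 the proteasome count was 9, 10 and 9 and the respiratory chain count 5, 7 and 8. With the dBRD9-A libraries lowered by 0.1 the splits were 2 higher and 4 lower, 0 and 11, and 1 and 14.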
